A study of Saccharomyces cerevisiae with 8 samples.

Results

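Cryptic unstable transcripts (CUTs) that start beside the promoter of a protein-coding gene and run away from it were taken from a transcript table of budding yeast. A CUT was included when no ORF-T row (an mRNA with its untranslated ends) on the opposite strand covered as much as 50% of its length and when its 5′ end lay within 500 bases upstream of the 5′ end of an opposite-strand ORF-T. The rule used deposited coordinates only, and whether each ORF-T row spans its whole gene was not tested. It selected 143 of the 732 CUTs, facing 142 partner ORF-Ts, in a table of 10054 transcripts. The partner was the nearest such ORF-T. *POP1*, which encodes a subunit of RNase P and RNase MRP, was the partner of both CUT324 and CUT325, and 2 CUTs had a second ORF-T within range. CUT325 starts at the last base of CUT324 on the same strand (chrXIV:234187), and CUT201 at the last base of CUT200 (chrX:134664). Each was counted as a CUT, and whether CUT325 and CUT201 have starts of their own was not tested.

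The study sequenced rRNA-depleted total RNA from 4 preparations of cells lacking *RRP6* (*rrp6Δ*, a haploid strain of the yeast deletion collection) and 4 of wild-type cells (WT, isogenic to BY4741), all grown in rich medium to the same density. Neither strain received a treatment, and *rrp6Δ* was 1 deletion strain. The libraries were strand-specific, so a CUT and its partner were counted separately. Total counts ranged from 8761140 to 12666126 in the *rrp6Δ* libraries and from 6904004 to 11298227 in the WT libraries. The *RRP6* row had 16 to 60 counts in *rrp6Δ* and 660 to 1787 counts in WT. The **a**-cell pheromone receptor gene *STE2*, a marker of the BY4741 mating type and itself the partner of CUT573, had 1000 to 2304 counts in *rrp6Δ* and 983 to 1703 counts in WT. Of the other **a**-cell markers, *MFA1* was not called different by the thresholds given below (log2 fold change -0.36). *MFA2* was called lower in *rrp6Δ* (-0.91, edgeR FDR 0.0552). The alpha-cell marker *STE3* had 19 to 47 counts in *rrp6Δ* and 19 to 24 counts in WT. BY4741 lacks *URA3*, but its row had 62 to 103 counts in *rrp6Δ* and 49 to 103 counts in WT. *HIS3*, deleted wholly or in part in BY4741, had 29 to 83 counts in *rrp6Δ* and 39 to 55 counts in WT. The source of these reads was not tested.

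Many yeast promoters fire in both directions: RNA polymerase II initiates the mRNA on one side of a nucleosome-depleted region and a short non-coding RNA on the other. The non-coding RNA is usually terminated early by the Nrd1-Nab3-Sen1 (NNS) complex, in which Nrd1 and Nab3 bind short RNA motifs and Sen1 is a helicase. The TRAMP complex then adds a short tail and hands the RNA to the nuclear exosome, whose 3′ to 5′ exonuclease Rrp6 degrades it. CUTs were named in earlier work for their appearance when Rrp6 is lost, so their rise in *rrp6Δ* is not independent of the class name.

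The 5′ ends of a CUT and its partner were between 68 and 489 bases apart, with a median of 220 bases. The divergent CUTs were 105 to 2033 bases long, with a median of 369 bases. Of these CUTs, 119 did not touch an opposite-strand ORF-T and 24 overlapped one in part. Sequences are given from the RefSeq assembly R64 of strain S288C, whose coordinates are those of sacCer3, the build that the submitters name. CUT coordinates on the right part of chromosome XI were out of register. Past base 200000 of that chromosome, the 5′ ends of 27 CUTs and SUTs (stable unannotated transcripts) differed from those of overlapping Nrd1 unterminated transcripts (NUTs) by a median of -351 bases, whereas the medians of other chromosomes lay between -25.5 and 26 bases. The 3 divergent CUTs of chromosome XI (CUT701 beside *URA1*, CUT702 beside *UBA1* and CUT717 beside *PRI2*) were kept in the counts and left out of the sequence analysis, and results without them are given below.

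The first 100 bases of 5 of the 8 CUTs with the largest rises among called CUTs that passed 3 counts in a WT library, and of the CUT beside *NRD1*, are shown to display the motifs that Nrd1 and Nab3 bind. Each is written 5′ to 3′ on its transcribed strand. Capitals mark GTAG and GTAA (bound by Nrd1 as RNA, with U for T) and TCTT and CTTG (bound by Nab3), and some of these letters overlap.
CUT831, chrXV:234395-234494, minus strand, beside *GAL11*: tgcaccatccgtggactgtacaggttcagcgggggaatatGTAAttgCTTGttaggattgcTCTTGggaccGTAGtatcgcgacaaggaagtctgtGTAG
CUT879, chrXVI:105826-105925, minus strand, beside *NSL1*: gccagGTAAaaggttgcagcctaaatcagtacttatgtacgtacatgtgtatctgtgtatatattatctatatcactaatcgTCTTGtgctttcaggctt
CUT168, chrVII:1038794-1038893, plus strand, beside *YGR273C*: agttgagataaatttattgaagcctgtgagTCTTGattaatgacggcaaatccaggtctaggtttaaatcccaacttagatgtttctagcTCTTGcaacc
CUT374, chrXV:421914-422013, plus strand, beside *RAT1*: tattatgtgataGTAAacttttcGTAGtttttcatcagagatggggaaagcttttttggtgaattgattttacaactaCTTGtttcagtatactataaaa
CUT142, chrVII:420907-421006, plus strand, beside *HEM2*: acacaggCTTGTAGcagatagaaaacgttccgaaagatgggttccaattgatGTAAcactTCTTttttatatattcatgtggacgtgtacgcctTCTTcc
CUT320, chrXIV:174891-174990, plus strand, beside *NRD1*: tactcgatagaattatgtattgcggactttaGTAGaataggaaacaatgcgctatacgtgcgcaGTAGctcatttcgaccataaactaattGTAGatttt

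CUT168 held 4 Nab3 motifs and no Nrd1 motif in these bases, and CUT320 held 3 Nrd1 motifs and no Nab3 motif. The other 4 CUTs shown held both kinds. In the first 200 transcribed bases of the 140 divergent CUTs off chromosome XI, GTAG was present in 54.3% and GTAA in 82.9%, against 36.2% and 53.3% of all 5431 ORF-Ts off that chromosome. TCTT was present in 83.6% and CTTG in 78.6% of the divergent CUTs, against 61.2% and 42.0% of all ORF-Ts. At least 1 motif of each protein was present in 85.0% of divergent CUTs, in 81.1% of 412 CUTs covered by 50% or more by an opposite-strand ORF-T, in 54.0% of 139 partner ORF-Ts and in 50.8% of all ORF-Ts. On the opposite strand of the same windows, both kinds were present in 59.3% of the divergent CUT windows and in 73.1% of the ORF-T windows. Summed over the 4 motifs, a divergent CUT window held 5.74 matches on average on the transcribed strand and 3.56 on the other, against 2.83 and 5.10 for all ORF-Ts. Coding sequence fills most of an ORF-T window, and windows of CUTs and ORF-Ts had mean GC contents of 36.1% and 38.9%. These shares were not tested, and a match of 4 letters is not a binding site.

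The bases between a CUT and its partner were taken as the shared promoter, and this was not tested. They are shown for 5 pairs: the pair of the largest CUT rise (CUT831), 2 pairs with matches to both motifs below, 1 pair with a short gap, and the pair of the largest partner fall without overlap of libraries. Each is written 5′ to 3′ on the strand of the partner ORF-T, so that the CUT starts just before the first base, on the other strand, and the ORF-T starts just after the last. Capitals mark TATAAA and CGGGTAA (the core of the Reb1 site) or their reverse complements.
CUT831 and *GAL11*, chrXV:234495-234749, plus strand: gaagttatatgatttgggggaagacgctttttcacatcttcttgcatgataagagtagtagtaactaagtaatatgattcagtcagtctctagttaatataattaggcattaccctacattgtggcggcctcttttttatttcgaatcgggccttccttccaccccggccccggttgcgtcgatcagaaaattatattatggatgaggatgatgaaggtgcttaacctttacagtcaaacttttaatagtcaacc
CUT374 and *RAT1*, chrXV:421683-421913, minus strand: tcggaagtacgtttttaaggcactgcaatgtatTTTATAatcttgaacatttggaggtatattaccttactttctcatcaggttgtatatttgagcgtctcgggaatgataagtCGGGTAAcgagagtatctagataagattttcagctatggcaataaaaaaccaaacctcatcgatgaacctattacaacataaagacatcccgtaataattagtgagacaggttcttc
CUT142 and *HEM2*, chrVII:420632-420906, minus strand: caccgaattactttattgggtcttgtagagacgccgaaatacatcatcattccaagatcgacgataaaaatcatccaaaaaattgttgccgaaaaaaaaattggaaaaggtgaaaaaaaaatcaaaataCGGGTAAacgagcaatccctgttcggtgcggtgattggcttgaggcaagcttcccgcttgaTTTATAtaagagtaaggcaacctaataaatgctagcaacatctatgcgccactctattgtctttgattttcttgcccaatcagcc
CUT168 and *YGR273C*, chrVII:1038722-1038793, minus strand: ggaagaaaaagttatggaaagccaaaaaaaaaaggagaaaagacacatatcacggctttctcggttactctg
CUT308 and *CMC4*, chrXIII:652914-653048, minus strand: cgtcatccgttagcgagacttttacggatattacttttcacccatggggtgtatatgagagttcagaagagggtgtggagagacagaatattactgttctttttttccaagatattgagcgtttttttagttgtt

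The gaps of *RAT1* and *HEM2* each held a TATAAA on the CUT strand and a CGGGTAA on the ORF-T strand, and the other 3 held no match. The gap of *GAL11* begins within the snoRNA gene *SNR81* (chrXV:234346-234546), which lies on the *GAL11* strand. Over the 140 gaps, 34.3% held TATAAA on either strand, against 34.5% of the 884 gaps between divergent ORF-Ts. The match lay on the ORF-T strand in 18.6% and on the CUT strand in 20.7% of the gaps. CGGGTAA on either strand was present in 14 of the 140 gaps beside divergent CUTs and in 97 of the 884 gaps between divergent ORF-Ts (11.0%). In a fixed window of 200 bases upstream of the ORF-T, 30.9% of 139 partners and 34.3% of all ORF-Ts held TATAAA on either strand. The median gap was 217 bases beside a CUT and 213 bases between ORF-Ts, and the mean GC content was 36.2% in both. By these letters, the gaps beside CUTs and the gaps between ORF-Ts held similar shares of both motifs.

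Loss of Rrp6 was accompanied by higher counts of nearly all divergent CUTs. Of 143, 126 were higher in *rrp6Δ* (88.1%) in edgeR's quasi-likelihood test. The thresholds were those of the study: 1.5-fold, an unadjusted p-value below 0.05, and an adjusted p-value (FDR, by Benjamini-Hochberg across the whole table) no greater than 0.1. Over all transcripts, 25.6% were called higher. No divergent CUT was called lower, against 9.61% of all transcripts, and none was lower at an unadjusted p-value under 0.05 in edgeR or past all thresholds in DESeq2. In a fit with the preparation number as a block, 1 CUT (CUT153) was called lower. The median log2 fold change was 2.02, with quartiles of 1.51 and 2.62 and a range of -0.69 to 4.70. It was at least 3 in 22 CUTs, from 2 to under 3 in 54, from 1 to under 2 in 54 and under 1 in 13. In 108 CUTs (75.5%) every *rrp6Δ* library was above every WT library, against 21.9% of all transcripts, and all 108 were among the called. Beside this, CUTs covered by 50% or more by an opposite-strand ORF-T had 378 of 430 called higher (87.9%, median 2.24), and the remaining CUTs had 91 of 159 called higher and 4 called lower (median 1.34). The difference between these kinds of CUT was not tested. Without the 3 CUTs of chromosome XI, 124 divergent CUTs were called higher and the median was 2.02. In bulk RNA, more cells with a transcript and more of it per cell cannot be told apart.

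**Figure D1:**
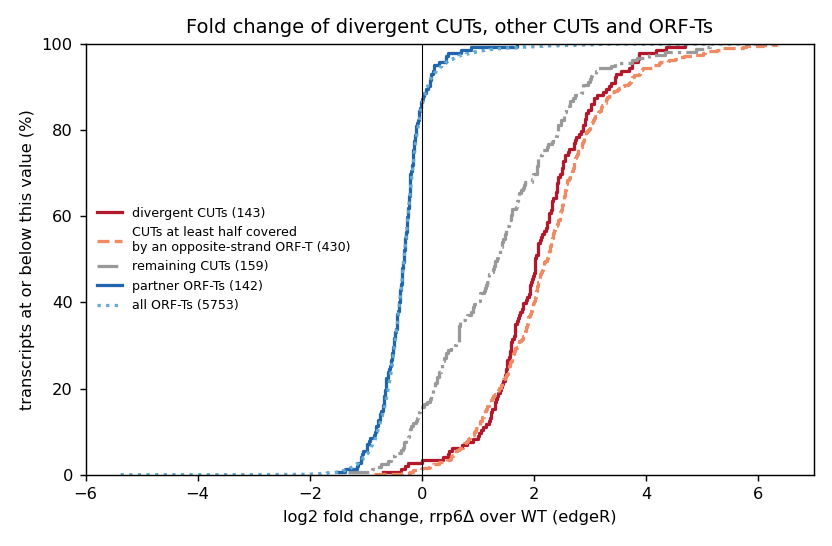
Cumulative curves of the log2 fold change, rrp6Δ over WT from edgeR (x axis), with the percentage of transcripts at or below each value (y axis), for 143 divergent CUTs, 430 CUTs covered by 50% or more by an opposite-strand ORF-T, 159 remaining CUTs, 142 partner ORF-Ts and all 5753 ORF-Ts. The divergent CUTs run to the right of 0 with a median of 2.02, and the partners (median -0.33) lie on the curve of all ORF-Ts (median -0.32).

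Counts of single divergent CUTs were low, above all in WT. The median CUT had 40, 35, 38 and 23 counts in the *rrp6Δ* libraries, against 7, 8, 4 and 3 counts in the WT libraries. No divergent CUT was at 0 in an *rrp6Δ* library, whereas 6, 3, 11 and 22 were at 0 in the WT libraries, the last in the shallowest library. No divergent CUT was at 0 in all WT libraries. More than 3 counts in every library were reached by 142 CUTs in *rrp6Δ* and by 47 in WT. In WT, 15 CUTs had 3 counts or fewer in every library. One of them, CUT492 beside *SLX5* (a subunit of a SUMO-targeted ubiquitin ligase), had 76, 64, 95 and 53 counts in *rrp6Δ*, against 1, 3, 2 and 3 counts in WT. Its log2 fold change was 4.36 ± 0.44 (SE, edgeR FDR 6.07e-05). All 15 were called higher, but they were grouped by their low WT counts, so this is no separate support.

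The largest rise among called CUTs that passed 3 counts somewhere in WT was that of CUT831 (chrXV:234190-234494), which faces *GAL11*, the gene of a tail subunit of the Mediator complex. It had 53, 37, 73 and 43 counts in *rrp6Δ*, against 1, 4, 0 and 0 counts in WT. The log2 fold change was 4.70 ± 0.62 (SE, edgeR FDR 0.000333). Without WT library 2 it was 6.38 (edgeR FDR 0.000133), with 1 count left among the other WT libraries. CUT831 lies opposite the snoRNA gene *SNR81* over 149 bases, on the other strand.

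CUT879 (chrXVI:105525-105925) faces *NSL1*, the gene of a subunit of the MIND kinetochore complex. It had 255, 192, 213 and 146 counts in *rrp6Δ*, against 9, 12, 7 and 2 counts in WT, a log2 fold change of 4.17 ± 0.37 (edgeR FDR 2.98e-05). CUT879 was the most abundant of the 8 CUTs described for the size of their rise, at 40.9 normalized counts (CPM with TMM scaling) per kilobase in *rrp6Δ* and 2.24 in WT. CUT168 (chrVII:1038794-1039298), beside the uncharacterized ORF *YGR273C*, had 91, 93, 96 and 79 counts in *rrp6Δ*, against 1, 6, 4 and 5 counts in WT (log2 fold change 3.87 ± 0.47). Both sets of libraries were far apart in each CUT.

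CUT374 (chrXV:421914-422202) faces *RAT1*, which encodes the nuclear 5′ to 3′ exonuclease that degrades the RNA left on the polymerase after cleavage. It had 51, 51, 57 and 57 counts in *rrp6Δ*, against 4, 5, 2 and 0 counts in WT (log2 fold change 3.75 ± 0.51). CUT095 (chrIV:1359157-1359485) faces *UTP6*, whose protein acts in rRNA processing, and had 50, 47, 60 and 22 counts in *rrp6Δ*, against 3, 5, 2 and 0 counts in WT (3.56 ± 0.56). The libraries of the strains did not overlap, although *rrp6Δ* library 4 had the fewest counts of CUT095. CUT597 (chrVII:345295-345727), beside the uncharacterized ORF *YGL088W*, had 77, 84, 82 and 65 counts in *rrp6Δ*, against 3, 12, 1 and 3 counts in WT (3.45 ± 0.53). The *YGL088W* row had 17818 to 30203 counts in *rrp6Δ* and 9601 to 27448 in WT. Its WT level was 4.03e+03 normalized counts per kilobase, against a partner median of 27.7, and the source of these reads was not tested. Without WT library 2, the log2 fold change was 4.15 for CUT095 and 4.49 for CUT597. CUT142 (chrVII:420907-421355) faces *HEM2*, the gene of a heme biosynthesis enzyme, and had 91, 144, 120 and 53 counts in *rrp6Δ*, against 7, 12, 3 and 4 counts in WT (3.45 ± 0.49). CUT213 (chrX:413672-414088) faces *VTC4*, the gene of a polyphosphate synthesis subunit, and had 36, 46, 57 and 16 counts in *rrp6Δ*, against 3, 4, 2 and 1 counts in WT (3.36 ± 0.53). The choice of these 8 CUTs also required that libraries did not overlap between strains. The two-sided exact permutation test over 70 arrangements of the libraries therefore had to give p = 0.0286, the smallest p it can give. This p is no separate support.

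**Figure D2:**
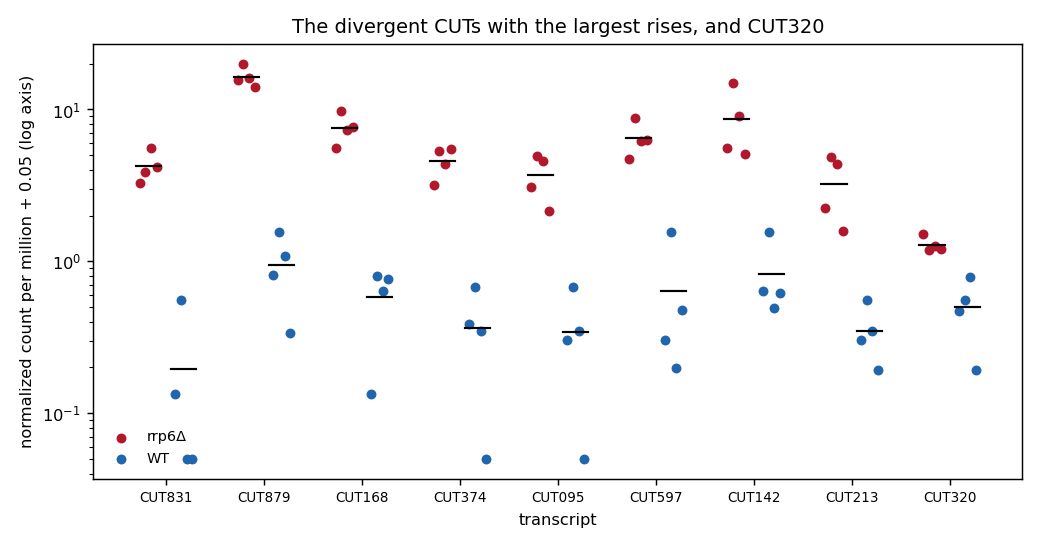
Normalized counts (CPM) plus 0.05 (log y axis) of the 8 divergent CUTs with the largest rises among called CUTs that passed 3 counts in a WT library, and of CUT320 (x axis), with 1 point per library, 4 rrp6Δ libraries in red left of 4 WT libraries in blue, and the mean as a bar. All rrp6Δ points lie above all WT points in each CUT, which was a condition for choosing the 8 but not for CUT320.

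Not called were 17 divergent CUTs, 13 of them fitted as higher in *rrp6Δ* and 3 with an unadjusted p-value under 0.05. The smallest change was that of CUT171 (chrVIII:74810-75370), which faces the urea transporter gene *DUR3* across 484 bases. It had 21, 13, 13 and 10 counts in *rrp6Δ*, against 16, 11, 4 and 8 counts in WT, and its libraries overlapped (log2 fold change 0.01 ± 0.39, edgeR FDR 0.99). CUT573, beside *STE2*, had 26, 14, 15 and 6 counts in *rrp6Δ*, against 6, 8, 6 and 1 counts in WT (edgeR FDR 0.201).

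The 4 CUTs fitted as lower, none of them called, were the 4 with the highest WT level per kilobase, and each lay on or next to another gene. CUT677 (chrX:139948-140116), beside *RPA34* (an RNA polymerase I subunit gene), had 270519, 248109, 483282 and 275558 counts in *rrp6Δ*, against 251818, 347166, 348939 and 139135 counts in WT (log2 fold change -0.38 ± 0.44). It shares strand and 150 of its 169 bases with the table's row of the snoRNA *SNR190*. That row had 281773, 262077, 501444 and 283179 counts in *rrp6Δ*, against 259043, 370611, 361000 and 145065 counts in WT, so both rows held similar numbers of reads. In RefSeq the *SNR190* gene (chrX:139761-139950) shares only 3 bases with CUT677.

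CUT153 (chrVII:700099-700675), beside *VOA1* (an assembly factor gene of the vacuolar ATPase), had 1740, 642, 765 and 611 counts in *rrp6Δ*, against 778, 1181, 1229 and 502 counts in WT (-0.69 ± 0.33, edgeR FDR 0.137). Its last base is the first of a tRNA gene on the same strand. A NUT that shares its first 349 bases, NUT0285, had 68, 35, 59 and 28 counts in *rrp6Δ*, against 8, 8, 14 and 4 counts in WT, and was called higher (log2 fold change 1.82 ± 0.41, edgeR FDR 0.00579). Most reads of CUT153 therefore lay outside the bases it shares with NUT0285. With the preparation number as a block, CUT153 was called lower (-0.61, edgeR FDR 0.078), as it was without WT library 1, without WT library 4 or without *rrp6Δ* library 1.

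CUT015 (chrII:326296-326776), beside *TCM62* (a mitochondrial chaperone gene), ends 15 bases from a tRNA gene on the opposite strand and had 1111, 1067, 1165 and 1218 counts in *rrp6Δ*, against 799, 1285, 873 and 677 counts in WT (-0.25 ± 0.27). CUT717, beside *PRI2* (a DNA primase subunit gene) on the displaced part of chromosome XI, shares 348 of 593 bases with the ORF-T YKL046C on its own strand and had 675, 706, 569 and 553 counts in *rrp6Δ*, against 724, 656, 389 and 395 counts in WT (-0.29 ± 0.22). The sign of CUT677, CUT015 and CUT717 turned under other scalings of the libraries. The part of the neighbouring genes in these counts was not tested. Of the 140 CUTs off chromosome XI, 7 lay within 100 bases of a tRNA or snoRNA gene, and the other 4 were called higher. The fifth by WT level, CUT148 beside *CAX4* (a gene of dolichol metabolism), had 170, 107, 184 and 102 counts in *rrp6Δ*, against 29, 23, 34 and 14 counts in WT, and was called higher (1.88 ± 0.31, edgeR FDR 0.00114).

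The protein-coding side of these promoters was called about as often as other ORF-Ts. Of 142 partners, 1 (*NRD1*) was called higher, against 2.09% of all ORF-Ts, and 20 (14.1%) were called lower, against 14.3% of all ORF-Ts. Partners had a median log2 fold change of -0.33, and all ORF-Ts one of -0.32. In 23 partners (16.2%) every *rrp6Δ* library was below every WT library, against 13.8% of all ORF-Ts, and in no partner was every one above. Of 1828 ORF-Ts that face another ORF-T within 500 bases and are no partner, 42 were called higher and 220 lower, with a median of -0.31. The count of lower partners moved with the scaling, since a scaling on ORF-Ts alone moved the median of all ORF-Ts by 0.30. It left 4 partners called lower, all among the 20, and 1 higher, with a partner median of -0.03. It left the CUTs high, with 131 called and a median of 2.34. Without *rrp6Δ* library 1 the number of lower partners was 9, and without WT library 4 it was 11.

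*NRD1* encodes Nrd1, an RNA-binding subunit of the NNS complex. CUT320 (chrXIV:174891-175235) starts 304 bases from *NRD1* and had 24, 11, 16 and 12 counts in *rrp6Δ*, against 5, 4, 5 and 1 counts in WT. CUT320 was called higher (log2 fold change 1.45 ± 0.45, edgeR FDR 0.0288), and its libraries did not overlap. *NRD1* (chrXIV:172426-174587) had 562, 289, 470 and 403 counts in *rrp6Δ*, against 153, 191, 93 and 243 counts in WT. Its normalized count was 34.6 ± 3.54 in *rrp6Δ* and 21.4 ± 10.2 in WT (SD, n = 4 each), a log2 fold change of 0.70 ± 0.29 (edgeR FDR 0.0919). Its libraries overlapped, with WT library 4 among the *rrp6Δ* libraries, and the exact permutation test gave p = 0.0857. Between preparations of the same number, *NRD1* was higher in *rrp6Δ* in 4 of 4 pairs, with normalized counts of 34.3, 30.0, 35.5 and 38.6 in *rrp6Δ*, against 12.9, 24.01, 13.8 and 34.7 in WT. With the preparation number as a block, its log2 fold change was 0.80 (edgeR FDR 0.00577). The call was also kept with factors from ORF-Ts only (1.00, edgeR FDR 0.0186), on library totals alone (1.04, edgeR FDR 0.0295) and without WT library 4 (1.12, edgeR FDR 0.00474). Without the block, it was lost at an FDR of 0.05 and when any library other than WT library 4 was left out (0.54 to 0.76, edgeR FDR 0.104 to 0.213). *INO1*, the inositol synthesis gene beside CUT201, had 21, 71, 19 and 1 counts in *rrp6Δ*, against 6, 12, 3 and 4 counts in WT, on a row of 144 bases. It had the highest fitted change among partners (1.70 ± 0.87) and did not pass the thresholds (edgeR FDR 0.158). *INO1* was called higher in DESeq2, on library totals alone, with the preparation number as a block, with the block and factors from ORF-Ts only, and without *rrp6Δ* library 4.

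Among the partners that fell, the 6 with the largest falls and no overlap between strains encode proteins of different roles. These values are normalized counts, because raw counts of the strains can overlap through library depth. *CMC4* (chrXIII:652325-652913), which encodes a protein of the mitochondrial intermembrane space, had 1.89, 1.77, 1.13 and 3.16 normalized counts in *rrp6Δ*, against 3.64, 5.78, 3.55 and 7.71 in WT. Its log2 fold change was -1.38 ± 0.39 (edgeR FDR 0.0178), while its CUT, CUT308, rose by 3.24 on the log2 scale. *CMC4* is an example of the paper, in which reads and polymerase after the convergent snoRNA snR11 pass its start in *rrp6Δ*. The paper proposes transcription interference there, although its northern blot with an snR11 probe showed no long read-through transcript. Whether CUT308, on the strand of snR11, holds such reads was not tested. *SSU1* (chrXVI:373649-375268), the sulfite efflux pump gene, had 40.1, 22.1, 28.2 and 38.6 normalized counts in *rrp6Δ*, against 76.6, 57.7, 56.6 and 94.3 in WT (-1.14 ± 0.24, edgeR FDR 0.00429). Its CUT, CUT895, was not called (24, 17, 20 and 16 raw counts in *rrp6Δ*, against 12, 12, 7 and 5 in WT). *CMC4* and *SSU1* kept their calls under all alternatives run.

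*FKH2*, a forkhead transcription factor gene of the cell cycle beside CUT336, had 3.05, 3.33, 6.49 and 5.65 normalized counts in *rrp6Δ*, against 6.60, 6.79, 9.62 and 16.4 in WT (log2 fold change -1.08 ± 0.37, edgeR FDR 0.0433). *APA1*, a diadenosine tetraphosphate phosphorylase gene beside CUT040, had 7.63, 7.17, 11.3 and 11.7 in *rrp6Δ*, against 13.4, 14.3, 17.8 and 34.7 in WT (-1.08 ± 0.32, edgeR FDR 0.0252). In both genes the highest *rrp6Δ* library came close to the lowest WT library. *LCB1*, the gene of a serine palmitoyltransferase subunit beside CUT311, had 19.5, 20.2, 26.7 and 21.0 normalized counts in *rrp6Δ*, against 27.0, 29.5, 46.2 and 78.2 in WT (-1.05 ± 0.31, edgeR FDR 0.0233). *ATG18*, a phosphoinositide-binding autophagy gene beside CUT577, had 7.26, 4.57, 6.04 and 7.28 in *rrp6Δ*, against 9.22, 9.05, 8.59 and 21.6 in WT (-0.94 ± 0.33, edgeR FDR 0.0527). WT library 4 was the highest in each of these 4 genes, as it was in *CMC4* and *SSU1*. None of the 4 was called without it. The 4 also lost their calls on library totals alone.

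**Figure D3:**
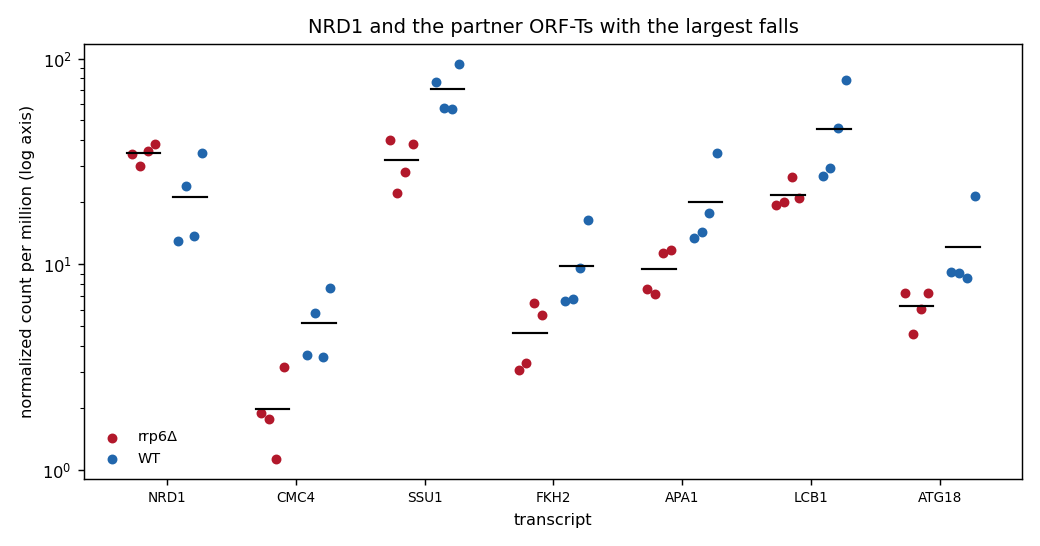
Normalized counts (CPM, log y axis) of NRD1 and of the 6 called partner ORF-Ts with the largest falls and no overlap between strains (x axis), with 1 point per library, 4 rrp6Δ libraries in red left of 4 WT libraries in blue, and the mean as a bar. NRD1 points overlap between strains, while in CMC4, SSU1, FKH2, APA1, LCB1 and ATG18 all rrp6Δ points lie below all WT points.

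By RefSeq symbol and product, the partners called lower included the only cytosolic ribosomal protein gene among them (*RPS2*), 1 of 5 kinase genes (*GUK1*) and 1 of 2 genes named for transcription (*FKH2*). Over all ORF-Ts, 116 of 138 cytosolic ribosomal protein genes, 21 of 219 kinase genes and 17 of 81 genes named for transcription were called lower. None of the 4 partners named for mitochondria was called, nor was the proteasome subunit gene *RPN12* or the tRNA methyltransferase gene *TRM44*, and over all ORF-Ts 11 of 88, 1 of 34 and 9 of 90 genes of these classes were called lower. Of the other 128 partners, 1 was called higher and 17 lower, against 114 higher and 645 lower of 5103 such ORF-Ts. Among 14 genes of the nuclear exosome, NNS and TRAMP, *NRD1* was called higher, *RRP6* itself lower, and the other 12 were not called. Of these genes, *NRD1* and *AIR1* (a TRAMP RNA-binding subunit) were partners of divergent CUTs. *AIR1* had 454, 225, 405 and 162 counts in *rrp6Δ*, against 533, 199, 288 and 103 counts in WT (-0.39 ± 0.33, edgeR FDR 0.38), while its CUT190 was called higher (2.41).

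The changes of CUT and partner were set side by side. Of the CUTs called higher, 18 faced a partner called lower and 107 a partner that was not called, and of the CUTs not called, 2 faced a partner called lower. The partners of called CUTs had a median of -0.33 with 18 of 125 lower, and the partners of CUTs not called had a median of -0.25 with 2 of 17 lower. Across the 143 pairs, Spearman's correlation was 0.05 between the fold changes of CUT and partner, and 0.05 between their WT levels per kilobase. These pairs share the same 8 libraries, so the values are descriptive. The WT level of a CUT and its fold change had a correlation of -0.45, and both contain the WT counts.

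**Figure D4:**
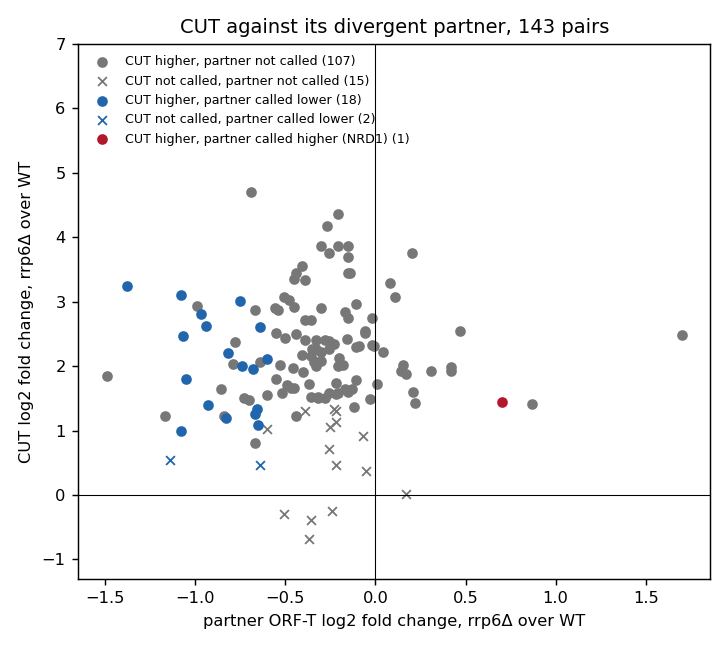
Log2 fold change, rrp6Δ over WT, of each CUT (y axis) against that of its partner ORF-T (x axis) for 143 pairs. Circles are CUTs called higher and crosses CUTs not called, and colours give the call of the partner: 107 grey circles lie mostly near a partner change of 0 to -0.5 at any CUT change, and the Spearman correlation is 0.05.

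The balance within a pair does not depend on how the libraries are scaled, because both counts come from the same library. With 0.5 added to both counts, the lowest *rrp6Δ* ratio of CUT to ORF-T exceeded the highest WT ratio in 109 of 143 pairs, and the reverse held in none. The same held for 4.14% of 1858 ratios between divergent ORF-Ts, taken in both orders. The mean log2 ratio was higher in *rrp6Δ* in 141 pairs, and the median difference was 2.43. In the median pair, the CUT held 5.79, 7.39, 7.02 and 5.30% of the pair's counts in the *rrp6Δ* libraries, against 1.09, 2.13, 1.21 and 0.651% in the WT libraries. Per kilobase these shares were 22.4, 25.6, 25.1 and 18.8% in *rrp6Δ*, against 4.04, 7.58, 5.36 and 2.68% in WT. The *rrp6Δ* and WT libraries did not overlap in either share.

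**Figure D5:**
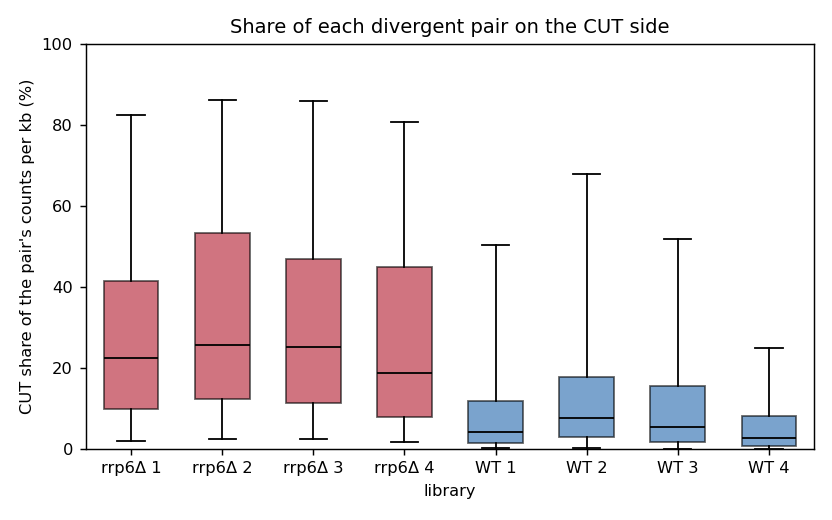
Share of a pair's counts per kilobase that lay on the CUT (y axis, percent) in each library (x axis, rrp6Δ in red, WT in blue) over 143 pairs, with the median as a line, the quartiles as a box and the 5th and 95th percentiles as whiskers. Medians are 18.8 to 25.6% in rrp6Δ and 2.68 to 7.58% in WT.

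The CUT exceeded its ORF-T per kilobase in 30, 39, 32 and 28 pairs of the *rrp6Δ* libraries and in 10, 13, 9 and 3 pairs of the WT libraries. By the means over libraries, 34 pairs had more than 50% of their signal per kilobase on the CUT in *rrp6Δ* and 7 pairs in WT, and 27 pairs were over this value in *rrp6Δ* alone. CUT831 held 82.4 to 87.7% of its pair in the *rrp6Δ* libraries, against 13.8, 46.2, 0 and 0% in the WT libraries. CUT879 held 69.3% in *rrp6Δ* and 8.98% in WT. CUT308, beside *CMC4*, held 70.5 to 92.9% in the *rrp6Δ* libraries and 3.37 to 48.5% in the WT libraries. Beside the highly expressed ribosomal protein gene *RPS2*, CUT593 had 8, 11, 20 and 12 counts in *rrp6Δ*, against 0, 4, 0 and 0 counts in WT, and its normalized counts overlapped through WT library 2 (log2 fold change 3.01 ± 0.86, edgeR FDR 0.0197). It held 0.0659 to 0.192% of its pair in the *rrp6Δ* libraries and 0.0388% in WT library 2, the only WT library with counts of it. CUT320 held 15.7 to 21.1% in the *rrp6Δ* libraries, against 17.0, 11.6, 25.2 and 2.51% in the WT libraries. These shares overlapped, with WT library 3 above every *rrp6Δ* library, and the exact permutation test of the CUT to ORF-T ratio gave p = 0.514.

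The changes were also split by the distance between the 5′ ends. Within 100 bases, 4 of 5 CUTs were called higher (median 1.93). Above this and up to 200 bases 42 of 49 were (2.22), from there to 300 bases 51 of 56 were (2.07), and beyond, to 500 bases, 29 of 33 were (1.88). Spearman's correlation of distance with the fold change was -0.05 for CUTs and 0.09 for partners over 143 pairs, and that of CUT length with the CUT fold change was -0.09. The closest pair by these rows, CUT395 and the meiotic kinase gene *MEK1*, was 68 bases apart, and the CUT was called higher (0.81). The *MEK1* row held 286 bases, against a partner median of 1718 bases. The rows of *INO1* (144 bases), *CIN5* (326 bases, beside CUT370) and *YGR273C* were also short. If such a row ends short of its gene's 5′ end, the CUT would lie over the gene, and this was not tested. At the edge of the rule, CUT171 (484 bases) and CUT030 beside *PGI1* (489 bases, 41, 37, 82 and 23 counts in *rrp6Δ*, against 14, 5, 7 and 5 counts in WT) were just inside. CUT920 (505 bases, 18, 24, 20 and 9 counts in *rrp6Δ*, against 0, 0, 0 and 1 counts in WT) and CUT537 (512 bases, 65, 50, 49 and 102 counts in *rrp6Δ*, against 43, 21, 22 and 57 counts in WT) were just outside. At the limit on overlap, CUT106 (48.7% covered, log2 fold change 1.59) and CUT883 (48.8%, 1.36) were just inside, and CUT908 (50.1%, 1.01) and CUT482 (51.1%, 3.29) just outside.

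Many divergent CUTs lay within a NUT, a transcript mapped elsewhere after depletion of Nrd1. Off chromosome XI, 88 of 140 (62.9%) had 50% or more of their length covered by a NUT of the same strand, against 81.1% of 412 CUTs covered by 50% or more by an opposite-strand ORF-T and 42.4% of 151 remaining CUTs. Of the 88, 82 were called higher with a median of 2.06, and of the other 52, 42 were called higher with a median of 1.98. The 85 covering NUTs had 69 called higher and none lower (median 1.73). They share reads with their CUTs and are not separate evidence. The NUT was the longer transcript in 79 of 88 cases, by a median of 390.5 bases over the 88. Stable or snoRNA annotation was rare on the divergent CUTs: a SUT covered 50% or more of none of them and an sn/snoRNA row of 1. Of all 143, 18 touched an ORF-T of the same strand, and in CUT104, CUT585, CUT642 and CUT717 it covered 50% or more.

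The next ORF-T in the direction of CUT transcription was also examined, at any distance. The median distance from the CUT was 49 bases for neighbours on the same strand and 225 bases for those on the opposite strand. Some neighbours were remote, such as that of CUT437 at 18106 bases. In 83 CUTs the neighbour lay on the same strand (tandem), and 16 of these CUTs reached into it. Of the 82 tandem neighbours, 2 were called higher and 15 lower (median -0.39). In 60 CUTs it lay on the opposite strand (convergent), and 21 reached it. Of the 59 convergent neighbours, 1 was called higher and 9 lower (median -0.23). These shares lower, 18.3% for tandem and 15.3% for convergent neighbours, stand beside the 14.3% of all ORF-Ts. Tandem neighbours called lower included the alcohol dehydrogenase gene *ADH2* after CUT791 (-1.77) and the recombination gene *RAD50* after CUT320 (-0.80), and *YRO2* after CUT017 was higher (1.98). These 3 were chosen after their values were seen.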

How the data were processed

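The authors obtained strand-specific single reads from a SOLiD sequencer, aligned these with bfast to sacCer3, and took read counts for annotated transcripts with bamutils. Alignments with and without rRNA and tRNA reads are both described, and which of them gave the table was not given in the sources used here. The deposited raw count of each transcript and library, a whole number without normalization, was analysed. The deposited normalized signal, the count divided by an effective library size from edgeR, served only to recover those library sizes for an alternative. Columns with the log2 fold change, p-value and FDR of the authors' own comparison were not used. Annotations overlap, so a read can be counted on several rows.

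All 10054 transcripts entered 1 fit in R 4.3.3 with edgeR 4.0.16 (TMM over all transcripts, no filter, glmQLFit and glmQLFTest, 4 *rrp6Δ* against 4 WT libraries, Benjamini-Hochberg adjustment over all transcripts), and only divergent CUTs and their neighbours are reported. A call needed a 1.5-fold change, p below 0.05 and an FDR no greater than 0.1. The standard error was taken as |log2 fold change|/√F. Normalized counts are CPM on TMM-scaled library sizes. A floor of 3 counts was 0.183 to 0.444 normalized counts. For single transcripts an exact permutation test (two-sided) was added. The procedure was tested on simulated data. Tables were handled in Python 3.11.15 with pandas 2.3.3 and numpy 2.4.6. Sequences and gene names came from RefSeq assembly R64, in which all 142 partners had a locus tag. Of 958 antisense rows whose ORF is in RefSeq, 952 have its coordinates.

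Transcripts given in full were the pair that the study names, the 8 largest rises among called CUTs without overlap of libraries and with more than 3 counts in a WT library, called partners with the largest changes and no overlap (6 in each direction, none being higher), the 5 CUTs with the highest WT level per kilobase, and the CUTs at the limits of the rule. CUT492, CUT573, CUT395, CUT593, *INO1* and *AIR1* with CUT190 were added after their values were seen. The CUTs, the lists and the tests were chosen with earlier results of these data known.

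Preparations carry the numbers 1 to 4 in both strains. After removal of strain means, log2 values correlated at 0.33 to 0.52 between strains for the same number and at -0.35 to 0.012 for other numbers, so a fit with the number as a block was run beside the main one. Other alternatives were DESeq2 1.42.0, edgeR's exact test, other scalings and filters, an FDR of 0.05, other limits on distance and overlap, and each library left out in turn. Results without chromosome XI and without CUTs lying by 50% or more on an ORF-T of their own strand were added after the data were examined.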

Additional observations from a re-analysis of the deposited data

Results flagged for a closer look

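Within the 4 libraries of a strain, the normalized count of single named transcripts was examined for a library that stands apart, by the gap of the highest or lowest library to its neighbour divided by the range, set against Dixon's 95% critical value. Of 58 such groups, 3 were found, and chance gives about 1 in 20. CUT831 had 0.503 in WT library 2, against 0.0846, 0 and 0 in the other WT libraries. CUT142 had 1.51 in WT library 2, against 0.592, 0.444 and 0.571 in the others. *ATG18* had 21.6 in WT library 4, against 9.22, 9.05 and 8.59 in the others, and was not called lower without that library (log2 fold change -0.43).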

How the results depend on the processing

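The rise of the divergent CUTs kept its direction and its count within 1.5 times, except where fewer CUTs were tested: 9 of 13 with at least 10 counts in every library and 46 of 54 within 200 bases. Their median was 2.34 with TMM factors from ORF-Ts only, 2.41 on library totals alone and 2.37 with the replicate block and factors from ORF-Ts only. Partners called lower numbered 20, but 4 with factors from ORF-Ts only, 2 on library totals, 2 with at least 10 counts in every library, 8 with the block and factors from ORF-Ts only, and 10 within 200 bases. The median of the partners under the first 4 of these was -0.03, 0.03, -0.11 and -0.02. Partners called higher numbered 1, but 2 with DESeq2, on library totals and with the replicate block, 5 (*NRD1*, *IZH4*, *CTP1*, *INO1* and *TDH1*) with the block and factors from ORF-Ts only, and 0 at an FDR of 0.05 or within 200 bases. CUTs called lower numbered 0, but 1 with the replicate block. The block changed no other count by more than 1.5 times, and gave 131 CUTs called higher and 29 partners lower. Pairs with the ratio higher in every *rrp6Δ* library numbered 44 of 54 within 200 bases. The difference in the median share on the CUT, 5.11 percentage points, was 7.37 within 200 bases and 18 per kilobase. Without the CUTs that lie by 50% or more on an ORF-T of their own strand, 123 CUTs were called higher and 18 partners lower. With each library left out in turn, CUTs called higher numbered 113 to 127 and lower 0 to 1, partners called higher 0 to 1 and lower 9 to 26, the medians were 1.88 to 2.33 for CUTs and -0.37 to -0.18 for partners, and pairs with the ratio apart numbered 109 to 124. The sign turned in CUT677 (0.04 on library totals), CUT015 (0.05 with factors from ORF-Ts, 0.15 on totals, 0.10 with the block and factors from ORF-Ts), CUT717 (0.02 and 0.07 under the first 2 of these) and CUT171 (-0.00 in the exact test, -0.18 to 0.17 with a library left out), all of them not called. The cause of these shifts was not tested beyond the scaling itself. In WT, 47 of 143 CUTs had more than 3 counts in every library, which limits the precision of each fold change.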
